A study of Mus musculus with 5 samples.

Results

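The genes described here encode the mineralised matrix of dentin and bone, or control its formation: Dspp, Dmp1, Ibsp, Mepe, Spp1, Bglap, Sp7, Alpl and Phex. They were chosen by name and role, and not by a threshold on a measured value, as 9 of 21938 protein-coding genes. A peak was assigned to a gene when it overlapped the gene body, or the 5 kb on either side of it, by at least 1 base in the GENCODE M21 annotation of GRCm38. Molar mesenchyme was collected from wildtype C57BL/6 mice at postnatal day 3, after the epithelium had been removed, and H3K27me3 was profiled by chromatin immunoprecipitation followed by sequencing (ChIP-seq). The 5 libraries were 2 H3K27me3 immunoprecipitations, 2 inputs of chromatin without immunoprecipitation and 1 immunoprecipitation with a nonspecific IgG. The labels do not say whether the libraries came from separate animals or pools, so an SD is the spread between 2 libraries, which may be technical. All libraries were wildtype, and the comparison they allow is where the mark lies in normal tissue. Expression was not analysed here, so the labelled tissue was not checked against its marker genes.

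H3K27me3, the trimethylated form of lysine 27 of histone H3, is deposited by the Polycomb methyltransferase Ezh2 and its partner subunits, and is typical of developmental genes kept silent. Odontoblasts, the mesenchymal cells that face the enamel organ, secrete collagen and a set of acidic phosphoproteins into predentin, where mineral then forms. Dspp and the other late matrix genes are little expressed in dental papilla cells that have not differentiated, and molar mesenchyme at this age holds cells of both kinds. In such bulk tissue, fewer cells that carry the mark and less mark per cell cannot be told apart.

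The authors called peaks against a control, giving one list for each pairing: replicate 1 over its input with 22757 peaks, the same replicate 1 library over IgG with 24881 peaks, and replicate 2 over its input with 33379 peaks. The lists over input and over IgG of replicate 1 share 1 H3K27me3 library and are not replicates of each other. Replicate 1 held 30369351 H3K27me3 tags of 49 bp after duplicate removal, and replicate 2 held 49947919 of 74 bp. The faintest listed peaks had a mean depth, over the peak and before scaling, of 4 overlapping tags in replicate 1 and 6 in replicate 2. Depth, tag length and replicate cannot be told apart in any difference between the lists. Only peak lists were used and there was 1 H3K27me3 group, so no test over samples was possible, and the values below are set beside the same values over all protein-coding genes.

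Over the replicates against input, 4 of the 9 genes had a peak in at least 1 list, and so did 9894 of the 21938 protein-coding genes. In replicate 1 over input 2 of 9 genes (22.2%) had a peak, Mepe and Phex, and the share of all protein-coding genes was 25%. In replicate 1 over IgG the same 2 genes had a peak, against 25.9% of all genes. In replicate 2 there were 3 genes (33.3%), Ibsp, Alpl and Phex, against 35.7% of all genes. Phex was the only gene with a peak in both replicates over input, 1 of 9 (11.1%), against 15.7% of all genes. Each of these shares lay close to or below its background. Dspp, Dmp1, Spp1, Bglap and Sp7 had no peak in any of the 3 lists. Genes whose windows were within a factor of 1.25 of each member's length, taken gene by gene, would give 2.14 members with a peak in replicate 1 over input, 2.22 over IgG, 2.89 in replicate 2 and 1.36 in both replicates. Those genes came from all chromosomes, while Phex lies on X, where peaks were sparser.

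**Figure D1:**
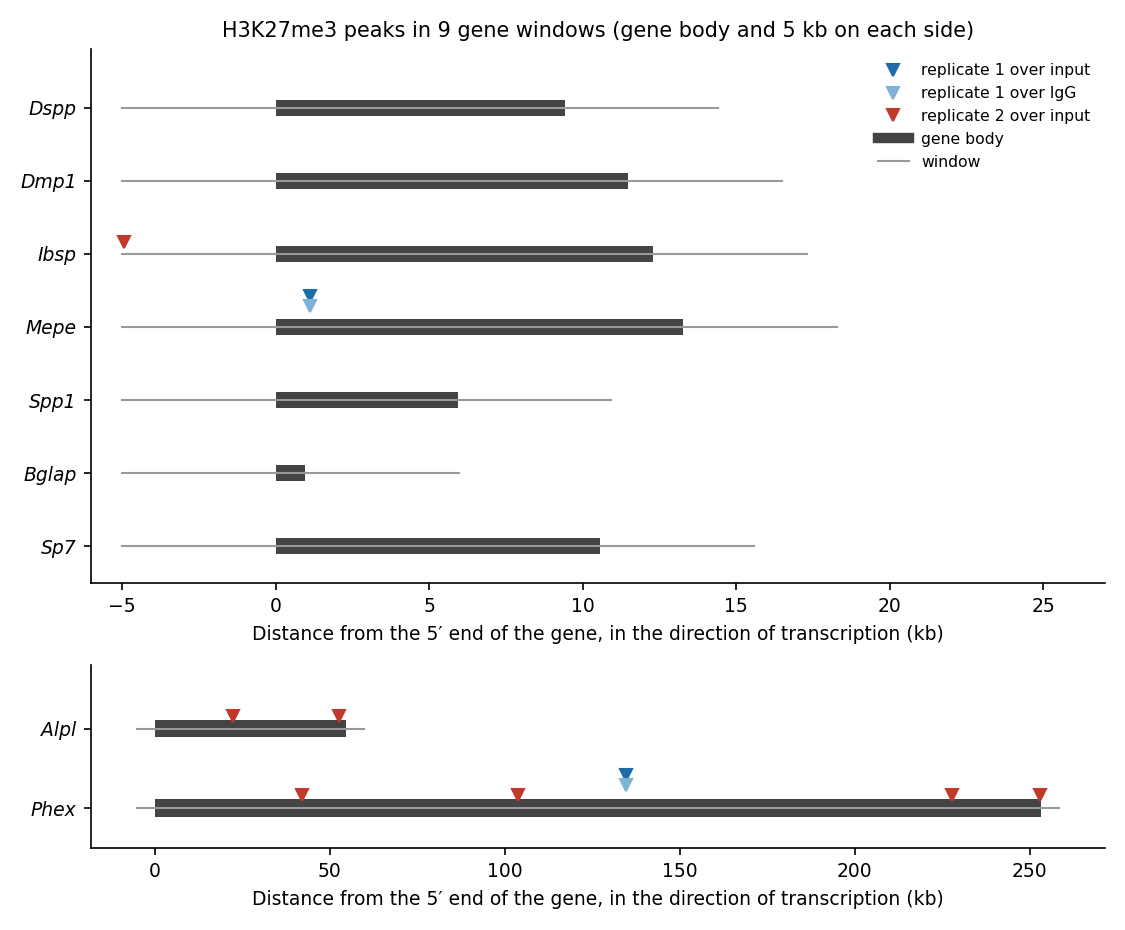
Positions of H3K27me3 peaks (triangles, coloured by list) along the 9 gene windows, in kb from the 5′ end of each gene in the direction of transcription; dark bars are gene bodies and thin lines the windows. Mepe has a peak in both lists of replicate 1, Ibsp and Alpl in replicate 2 only, and the 5 genes Dspp, Dmp1, Spp1, Bglap and Sp7 have none.

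The stretches of genome that were called in these genes are printed here because they are the whole of the evidence for the mark at them. Each is the plus strand of GRCm38, 5′ to 3′, with CG dinucleotides in capitals. One further peak, in an untranslated region of Phex, is described with that gene.
Mepe intron, replicate 1, chr5:104326429-104326474: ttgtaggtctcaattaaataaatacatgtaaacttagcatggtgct
Phex intron, replicate 1, chrX:157280741-157280800: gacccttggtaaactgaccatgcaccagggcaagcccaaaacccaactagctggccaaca
Ibsp upstream flank, replicate 2, chr5:104294168-104294316: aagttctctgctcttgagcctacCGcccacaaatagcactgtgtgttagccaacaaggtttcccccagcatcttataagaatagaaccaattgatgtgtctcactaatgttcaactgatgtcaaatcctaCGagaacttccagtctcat
Alpl coding exon, replicate 2, chr4:137743644-137743788: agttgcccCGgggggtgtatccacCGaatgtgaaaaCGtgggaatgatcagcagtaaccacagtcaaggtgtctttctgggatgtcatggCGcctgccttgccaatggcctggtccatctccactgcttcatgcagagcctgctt
Alpl intron, replicate 2, chr4:137773961-137774118: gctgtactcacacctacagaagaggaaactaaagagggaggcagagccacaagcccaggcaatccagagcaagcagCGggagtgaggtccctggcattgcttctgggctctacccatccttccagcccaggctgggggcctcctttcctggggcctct
Phex intron, replicate 2, chrX:157187455-157187627: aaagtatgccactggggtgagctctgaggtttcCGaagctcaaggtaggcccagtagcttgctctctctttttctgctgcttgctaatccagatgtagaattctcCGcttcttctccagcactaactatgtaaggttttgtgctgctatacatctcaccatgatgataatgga
Phex intron, replicate 2, chrX:157311528-157311706: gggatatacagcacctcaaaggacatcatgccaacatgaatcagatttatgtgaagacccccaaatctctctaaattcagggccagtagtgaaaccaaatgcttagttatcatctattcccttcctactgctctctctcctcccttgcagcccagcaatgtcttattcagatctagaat
Phex intron, replicate 2, chrX:157373301-157373432: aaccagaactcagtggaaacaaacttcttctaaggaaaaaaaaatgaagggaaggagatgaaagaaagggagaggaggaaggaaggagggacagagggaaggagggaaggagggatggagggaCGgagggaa
Of the 9 distinct peaks 6 were intronic, 1 lay in a coding exon, 1 in an untranslated region and 1 in a flank. Their GC content ran from 30.4% to 60.1%, 3 held no CG and the richest held 4. Every position in them starts a tag that occurs once in the genome.

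Dspp, the precursor of dentin sialoprotein and dentin phosphoprotein and the gene most used to mark odontoblasts, is ENSMUSG00000053268.7 at chr5:104170712-104180127 on the plus strand. Its 19.4 kb window held 0 peaks in replicate 1 over input, 0 over IgG and 0 in replicate 2. The nearest peak to its 5′ end lay 52.2 kb away in both lists of replicate 1 and 96.4 kb away in replicate 2. Among genes with windows of like length 15.7% carried a peak in replicate 1 and 20.4% in replicate 2, and the chromosome's mean density would give it 0.208 and 0.269 peaks. An empty window was therefore the usual outcome for a gene of this size. Tags of 49 bp could be placed uniquely at 98.8% of the window and tags of 74 bp at 99.8%.

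Dmp1, dentin matrix protein, a phosphoprotein of odontoblasts and osteocytes, is ENSMUSG00000029307.7 at chr5:104202613-104214102 on the plus strand, the next gene after Dspp. It also had 0 peaks in all 3 lists. Its nearest peak lay 84.1 kb from the 5′ end in both lists of replicate 1 and 64.5 kb from it in replicate 2. Of its 21.5 kb window 98.3% was unique at 49 bp and 99.5% at 74 bp.

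Ibsp, bone sialoprotein, which binds collagen and nucleates hydroxyapatite, is ENSMUSG00000029306.8 at chr5:104299171-104311469 on the plus strand. It had 0 peaks in both lists of replicate 1 and 1 in replicate 2, covering 0.655% of its window, more than in 87.3% of genes. That peak, chr5:104294168-104294316, lay 4.86 kb before the 5′ end at its nearer edge and crossed the limit of the window, with 146 of its 149 bases inside. Its pileup was 6, the lowest in the list and shared by 37.9% of its peaks, and its fold enrichment was 2.41 against a list median of 2.45. The nearest replicate 1 peak to it was 32.1 kb away.

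Mepe, matrix extracellular phosphoglycoprotein, whose acidic peptide inhibits mineralisation, is ENSMUSG00000053863.3 at chr5:104325329-104338611 on the plus strand. It was the only one of the 9 genes with a peak near its 5′ end, 46 bp at chr5:104326429-104326474 in an intron, 1100 bp downstream of the 5′ end. That peak just missed the 1 kb used here for a promoter. Its pileup in replicate 1 over input was 3.12, a depth of 4 overlapping tags before scaling and the lowest in the list, held by 44.5% of peaks. Its fold enrichment was 2.60, against a list median of 2.63, and its −log10 p was 2.52. Over IgG the same bases were listed with a pileup of 3.22 and a fold enrichment of 2.63. Repeats covered 56.5% of the peak. In replicate 2 the gene had 0 peaks, and the nearest lay 32.1 kb from this one.

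Spp1, osteopontin, a phosphoprotein of bone and of many other tissues, is ENSMUSG00000029304.14 at chr5:104435118-104441050 on the plus strand. It had 0 peaks in every list, with the nearest 42.7 kb from its 5′ end in both lists of replicate 1 and 129 kb from it in replicate 2. Between 4 and 8 peaks lay within 500 kb of its 5′ end, depending on the list.

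Dspp, Dmp1, Ibsp, Mepe and Spp1 stand side by side on chromosome 5 and belong to the small integrin-binding ligand N-linked glycoproteins, a family of secreted phosphoproteins, so their values are not independent of each other. From 5 kb before Dspp to 5 kb after Spp1 the cluster spans 280 kb. It held 2 peaks in each list, 7.13 per Mb (SD 0, n = 2). The mean density of chromosome 5 would give 2.98 peaks in replicate 1 over input, 3.13 over IgG and 3.85 in replicate 2. Stretches of this length laid end to end over the autosomes held a median of 2, 2 and 3 peaks, and 67.3%, 65.1% and 33.3% of them held no more than the cluster did. The cluster thus lay at the median in replicate 1 and below it in replicate 2. The 2 peaks of replicate 1 were the Mepe intron peak and one 42.7 kb before Spp1, and those of replicate 2 lay 31.9 kb and 4.86 kb before Ibsp. The replicates shared none of them. Of the tag positions in the cluster, 91.0% were unique at 49 bp and 94.6% at 74 bp.

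**Figure D2:**
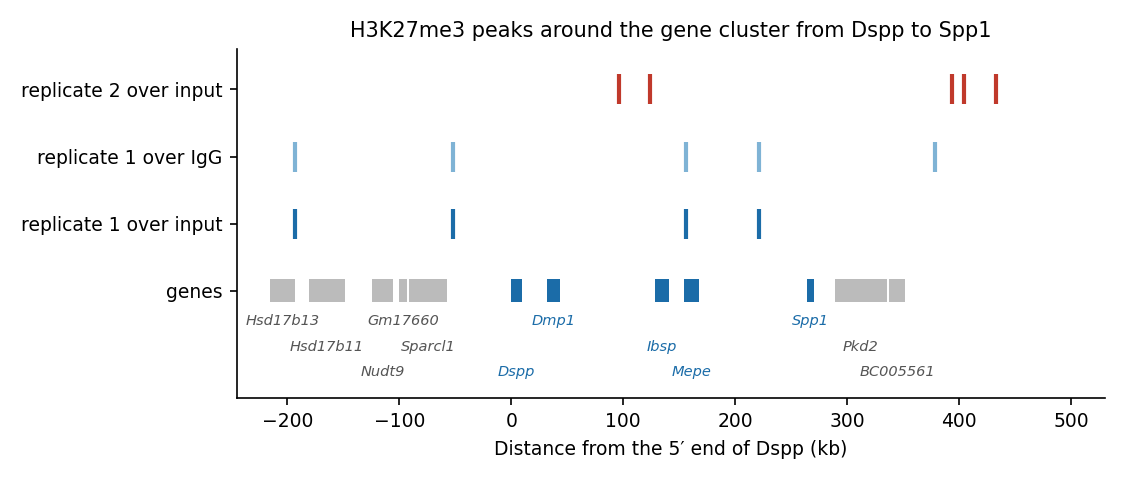
H3K27me3 peaks (vertical marks, drawn wider than their true length) in the 3 lists around the gene cluster from Dspp to Spp1, in kb from the 5′ end of Dspp, with the 5 matrix genes in blue and other protein-coding genes in grey. Between Dspp and Spp1 each list has 2 peaks, and no peak of replicate 1 lies at the place of a replicate 2 peak.

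Sparcl1, the matricellular protein gene before Dspp, had 1 peak in each list of replicate 1 and 0 in replicate 2. Pkd2, the polycystin gene after Spp1, had 0 in all 3. Within 500 kb of Dspp there were 5 peaks in replicate 1 and 6 in replicate 2, where the chromosome's density would give 10.6 and 13.7.

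Bglap, osteocalcin, the vitamin K-dependent protein of mature osteoblasts, is ENSMUSG00000074483.2 at chr3:88383501-88384464 on the minus strand. It had 0 peaks in all lists in a window of 11.0 kb, the shortest of the 9. It is also the window with the lowest share of unique positions. Bglap2 and Bglap3 are near-identical copies beside it. Of its positions 63.6% were unique at 49 bp and 78.6% at 74 bp, and no uniquely placed tag of that length can start at the rest. Bglap2 had 0 peaks in every list and Bglap3 had 2 in replicate 1 and 0 in replicate 2. The surroundings were not empty. Within 500 kb of the 5′ end there were 28 peaks in replicate 1 over input, 33 over IgG and 22 in replicate 2, more than for 93.8%, 94.02% and 92.6% of genes, where density would give 6.71, 7.26 and 13.1. Among the genes there, chosen after their values were seen, Bcan, a brain proteoglycan gene 384 kb away, had 4 peaks in each list and was covered over 4.66% and 3.94% of its window in the replicates over input. Hapln2, a hyaluronan link protein gene 357 kb away, had 2 in each.

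Sp7, osterix, the zinc finger transcription factor needed for osteoblast formation, is ENSMUSG00000060284.7 at chr15:102356606-102367182 on the minus strand. It had 0 peaks in the 3 lists in a window of 20.6 kb, with 96.4% of positions unique at 49 bp and 98.5% at 74 bp. The nearest peak lay 137 kb from its 5′ end in replicate 1 over input, 222 kb over IgG and 18.1 kb in replicate 2. Within 500 kb it had 18, 18 and 21 peaks, more than for 84.0%, 81.0% and 90.9% of genes. The HoxC cluster is on the same chromosome, with the 5′ end of Hoxc13 554 kb from that of Sp7. The flanking genes Aaas and Sp1 each had 0 peaks in replicate 1 and 1 in replicate 2.

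Alpl, tissue-nonspecific alkaline phosphatase, the ectoenzyme that removes the mineral inhibitor pyrophosphate, is ENSMUSG00000028766.10 at chr4:137741733-137796384 on the minus strand. It had 0 peaks in replicate 1 over input, 0 over IgG and 2 in replicate 2, which covered 0.469% of its window. The density of chromosome 4 would give 0.667, 0.744 and 0.878. Of the 2302 genes with windows of like length, 31.1% had a peak in replicate 1 and 51.8% in replicate 2. One peak, chr4:137743644-137743788, was in a coding exon 52.6 kb from the 5′ end, with the list's lowest pileup of 6 and a fold enrichment of 2.41. The other, chr4:137773961-137774118, was in an intron 22.3 kb from the 5′ end, with a pileup of 6.3 and a fold enrichment of 2.51. Both lay far from any replicate 1 peak, at 62.2 kb and 43.5 kb. The nearest peaks to the 5′ end were 21.2 kb away in replicate 1 and 17.9 kb in replicate 2.

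Phex, the membrane endopeptidase whose loss causes X-linked hypophosphatemia, is ENSMUSG00000057457.11 at chrX:157162075-157415312 on the minus strand. It had 1 peak in replicate 1 over input, 1 over IgG and 4 in replicate 2, and was the only gene of the 9 with a peak in both replicates. Its window of 263 kb makes up most of the 462 kb summed over the 9 genes. Of the 467 genes with windows of like length, 73.7% carried one or more in replicate 1, 95.3% did so in replicate 2 and 70.9% in both, with medians of 1 and 3 peaks. Over all chromosomes, a peak in both replicates was the usual case for a gene of this length. On X, where Phex lies, it was found in 8 of 20 such genes.

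Peaks were sparse on the X chromosome, at 1.37 per Mb in replicate 1 and 4.65 per Mb in replicate 2, against 9.40 and 13.6 per Mb on the autosomes. At the density of X the Phex window would hold 0.361 peaks in replicate 1, 0.411 over IgG and 1.23 in replicate 2, all below what it held. The 20 X-linked genes of like length had medians of 0 and 2.5 peaks and up to 1 and 8, and 8 of them had peaks in both replicates. Phex was within their range. The sex of the animals is not in the labels.

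The replicate 1 peak of Phex, chrX:157280741-157280800, lay in an intron 134.5 kb from the 5′ end. Its pileup was 4.38 and its fold enrichment 3.40, and 1.08% of the peaks in its list had a higher one. Over IgG the same bases had a fold enrichment of 3.45. In replicate 2 the nearest peak was 30.7 kb away. The strongest replicate 2 peak in the gene, chrX:157162393-157162463, was in an untranslated region 252.8 kb from the 5′ end, near the end of the gene. Its pileup was 7.54 and its fold enrichment 2.95, and 2.36% of the list had a lower p. The other 3 were intronic, at 227.7 kb, 103.6 kb and 41.9 kb from the 5′ end, with pileups of 6.22, 6.64 and 6. Repeats covered 57.2% of the first of these and 89.4% of the last. The Phex peaks listed in the replicates thus lay at separate places, and no place in the gene was called in both.

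**Figure D3:**
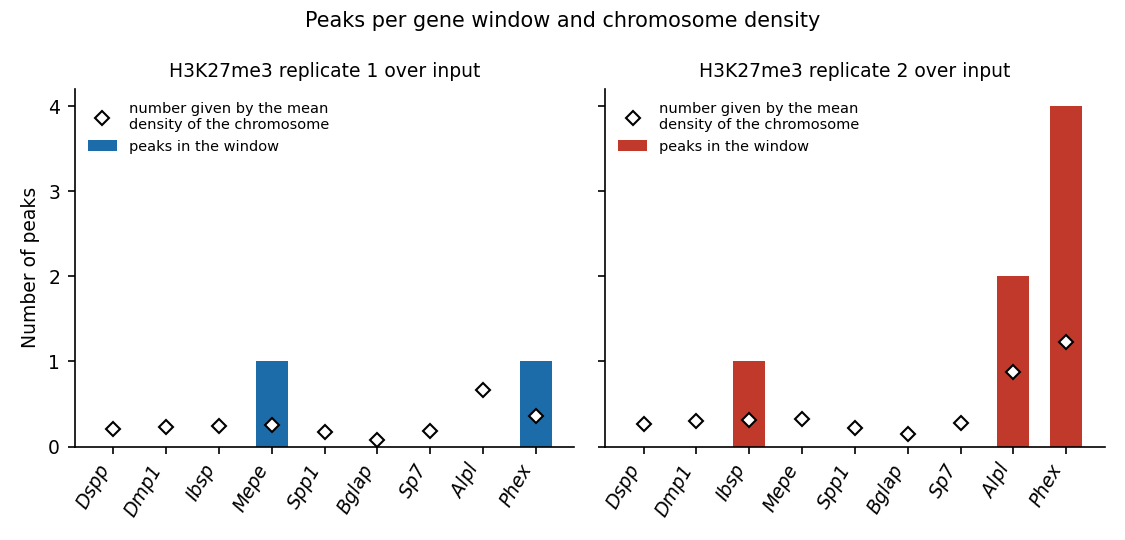
Number of peaks in each gene window (bars) in replicate 1 and replicate 2 over input, with the number that the mean peak density of the gene's chromosome gives for the window length (diamonds). The highest bar is Phex in replicate 2, with 4 peaks where density gives 1.23, and Alpl has no peak in replicate 1 where density gives 0.667.

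Over the 9 windows together there were 2 peaks in replicate 1 over input, 2 over IgG and 7 in replicate 2, a mean of 4.5 ± 3.54 over the replicates against input (SD, n = 2). The densities of the chromosomes would give 2.38, 2.58 and 3.95. Without Phex the counts were 1, 1 and 3, where density would give 2.02, 2.17 and 2.72. The 5 genes without a peak in any list make up 88.4 kb, for which density would give 0.868, 0.919 and 1.21 peaks. That is about 1 peak in each list. These genes were picked for having no peak, so their count of 0 was set by that choice and nothing can be read from it. The covered share of the windows was 0.0230% in both lists of replicate 1 and 0.217% in replicate 2, against 0.146%, 0.165% and 0.275% over the windows of all protein-coding genes. By mean covered share Ibsp came first at 0.327% ± 0.463, then Alpl at 0.234% ± 0.331, Phex at 0.117% ± 0.133 and Mepe at 0.0988% ± 0.140 (SD, n = 2). No neighbours in that order differed beyond their spread, since each SD exceeded its mean. None of the 2 replicate 1 peaks was overlapped by a replicate 2 peak, nor was one found within 1 kb or 5 kb.

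Promoters were taken as the 1 kb on each side of the annotated 5′ end. Of the 9 genes 0 had a promoter peak in replicate 1 over input, 0 over IgG, 0 in replicate 2 and 0 in both. With 9 genes, a count of 0 allows a share as high as 33.3%. Over all protein-coding genes the shares were 3.87%, 4.52%, 4.16% and 1.04% respectively. At shares this low a set of 9 genes without a promoter peak is not a result about these genes. Using every annotated transcript start in place of the 5′ end of the gene, with 8 starts in Alpl and 6 in Spp1, left the count at 0 in every list. The nearest peak to the 5′ end lay at a median of 42.7 kb in both lists of replicate 1 and 41.9 kb in replicate 2, against 55.4 kb, 53.4 kb and 31.4 kb over all genes.

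Most of these promoters were poor in CG dinucleotides. Polycomb complexes are known to settle on CpG islands, stretches in which CG dinucleotides are frequent and largely unmethylated. The ratio of observed to expected CG within 1 kb of the 5′ end was 0.274 in Dspp, 0.213 in Dmp1, 0.194 in Ibsp, 0.246 in Mepe and 0.228 in Spp1. It was 0.195 in Bglap, 0.255 in Sp7, 0.234 in Phex and 0.566 in Alpl. Their median was 0.234, against 0.474 over all genes and 0.591 over the Hox genes, and 8 of the 9 lay below the median of all genes. All promoters were ranked by this ratio and cut into 4 groups of equal size. From the lowest group to the highest, 0.255%, 0.675%, 1.79% and 1.44% had a peak in both replicates. In the same order the shares were 1.73%, 4.27%, 5.65% and 3.85% in replicate 1 over input. They were 2.77%, 3.79%, 5.27% and 4.79% in replicate 2. The group next to the lowest was thus above the highest group in both lists of replicate 1, and below it in replicate 2. Bglap and Ibsp fell in the lowest group, 6 others in the next, and Alpl in the third. The groups held 2, 6, 17 and 14 Hox genes. Whether CG content accounts for the lack of promoter peaks in the 9 genes was not tested.

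Alpl and Mepe are shown as the contrast, Mepe because it had the peak nearest to a 5′ end. These are the 250 bases before the RefSeq start of each at the annotated 5′ end of the gene, from GRCm38.p6, read 5′ to 3′ in the direction of the gene, with CG in capitals. The Alpl stretch, chr4:137796385-137796634 on the minus strand, holds 20 CG, and the Mepe stretch, chr5:104325079-104325328 on the plus strand, holds 2. A further RefSeq start of Alpl lies 29909 bp downstream, and the 250 bases before it hold 4 CG.
Alpl upstream: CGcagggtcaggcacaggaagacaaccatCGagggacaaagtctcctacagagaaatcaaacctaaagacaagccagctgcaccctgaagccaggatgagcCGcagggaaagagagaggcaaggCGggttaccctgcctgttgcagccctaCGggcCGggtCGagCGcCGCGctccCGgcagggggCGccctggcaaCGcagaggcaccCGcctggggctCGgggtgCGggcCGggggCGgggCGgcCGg
Mepe upstream: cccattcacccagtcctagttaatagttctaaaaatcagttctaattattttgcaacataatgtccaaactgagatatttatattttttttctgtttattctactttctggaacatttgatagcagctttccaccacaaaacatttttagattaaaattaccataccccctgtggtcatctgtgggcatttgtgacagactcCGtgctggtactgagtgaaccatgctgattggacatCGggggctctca
RefSeq stretches of this kind were at hand for 7 of the 9 genes, the others being Dspp and Sp7. Neither sequence was covered by a peak in any list.

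**Figure D4:**
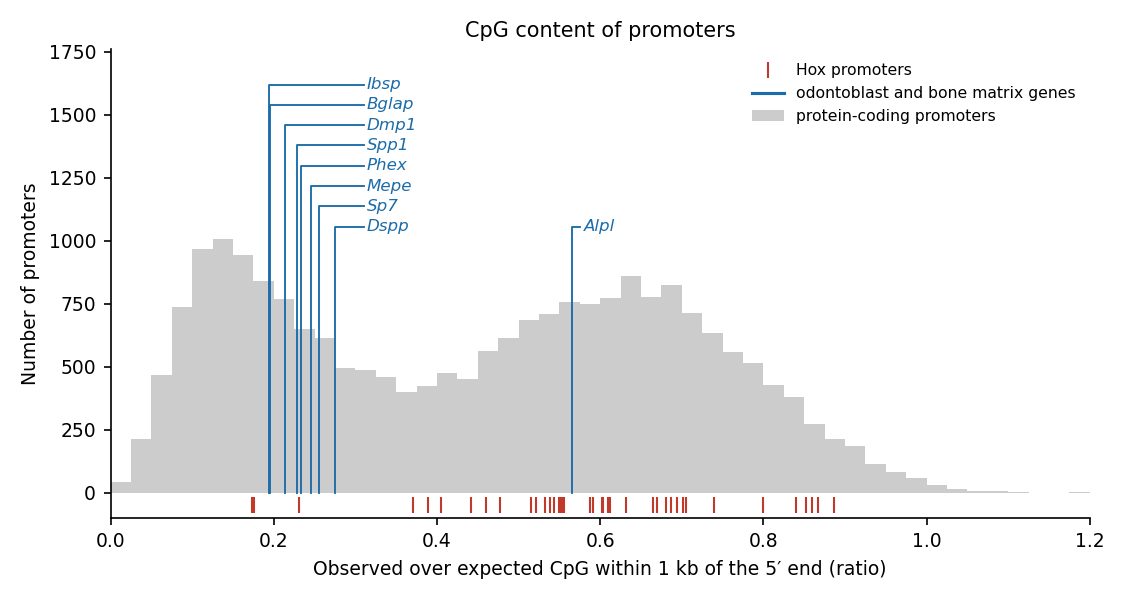
Distribution of the observed over expected CpG ratio within 1 kb of the 5′ end for protein-coding promoters (grey histogram, number of promoters), with the 9 odontoblast and bone matrix genes as blue lines and Hox promoters as red ticks. All of the 9 genes but Alpl lie at or below 0.274, and most Hox promoters lie above the median of all genes, 0.474.

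Other genes of mineralised tissue were read in the same way, from lists of 15 matrix genes, 12 genes of mineral and phosphate handling and 13 regulators. Of the matrix genes 4 had a peak in replicate 1 over input, 3 over IgG and 5 in replicate 2, and 3 had one in both replicates: Col1a2, a chain of type I collagen, Col5a1, a chain of type V collagen, and Mgp, an inhibitor of calcification. Of the mineral and phosphate genes 4, 7 and 8 had a peak, with Enpp1, Phospho1 and Sost in both replicates. Of the regulators 3, 4 and 7 had a peak, with Runx2, Twist1 and Zfp521 in both. Over the 40 genes the counts were 11 (27.5%), 14 (35%) and 20 (50%), with 9 (22.5%) in both replicates, and 0 had a promoter peak in both. The replicate 1 share stood near the 25% of all genes over input and above the 25.9% of all genes over IgG. The replicate 2 share was above the 35.7% of all genes, and the share in both replicates above the 15.7% of all genes. These shares were not matched for window length, which was 296 kb in Zfp521 and 163 kb in Col5a1. A gene counted in both replicates had a peak anywhere in its window in each. Whether those peaks overlapped between the replicates was not examined for the 40 genes. The 40 windows held 17, 23 and 42 peaks, where density would give 21.8, 24.0 and 33.2. The count was thus below density in both lists of replicate 1 and above it in replicate 2.

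Sost, which encodes the osteocyte Wnt inhibitor sclerostin, had the highest covered share of these 40. It had 4 peaks in replicate 1 over input, 3 over IgG and 3 in replicate 2, which covered 3.31%, 1.63% and 5.81% of its 14.6 kb window, a mean of 4.56% ± 1.77 over the replicates against input (SD, n = 2). That was more than in 98.7% and 99.3% of genes. Phospho1, the phosphatase that supplies phosphate inside matrix vesicles, had 2, 5 and 2 peaks, covering 2.34%, 3.80% and 1.25%. Twist1, a basic helix-loop-helix factor that restrains osteoblast differentiation, had 2, 1 and 1 peaks, covering 1.32% in both replicates over input. Runx2, the runt-domain factor needed for osteoblasts, had 1, 1 and 4 peaks in a window of 329 kb, where density would give 2.76 in replicate 1 and 4.20 in replicate 2.

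The enamel matrix genes and the Hox genes were read for comparison. The 7 enamel genes, made by the epithelium that was removed, had no peak in either list of replicate 1, against 25% and 25.9% of all genes. In replicate 2, 3 of them (42.9%) had one, against 35.7% of all genes. Peaks there covered 0.404% of their windows, against 0.275% over all genes. Density would give 1.79, 1.91 and 2.36 peaks in the 3 lists, where 0, 0 and 4 were found. With 7 genes these counts are not a result about them. All 39 Hox genes had a peak in every list, and a median of 11.7% of the window was covered in replicate 1 over input, 14.7% over IgG and 9.88% in replicate 2. Promoters of 24 Hox genes had a peak in both replicates. Hox genes lie in clusters, so neighbouring windows can share peaks and their values are not independent of each other. The highest value of the 9 dentin and bone genes in any list, 0.655%, was below the lowest Hox values, 3.33% in replicate 1 over input and 3.21% in replicate 2. Unique positions made up 97.3% to 100% of Hox windows at 49 bp, and 63.6% to 98.8% of the windows of the 9 genes.

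**Figure D5:**
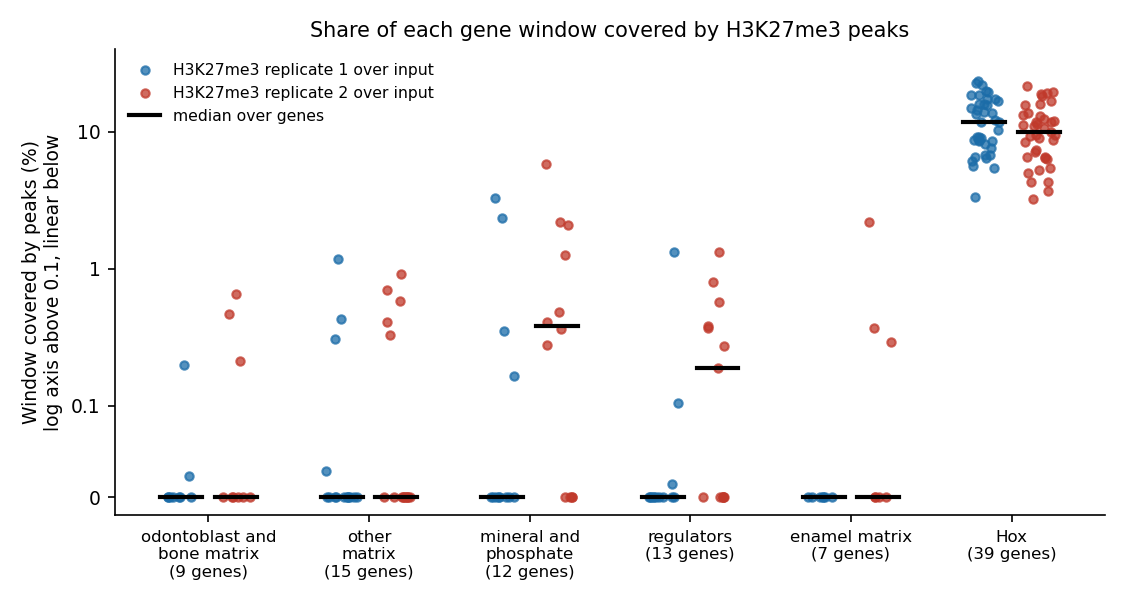
Share of each gene window covered by peaks (%, logarithmic above 0.1 and linear below) in replicate 1 and replicate 2 over input, each point a gene and black bars the medians over genes. The 9 odontoblast and bone matrix genes lie between 0 and 0.655%, with a median of 0 in both replicates, and the 39 Hox genes have medians of 11.7% and 9.88%.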

How the data were processed

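H3K27me3 ChIP-seq libraries of molar mesenchyme were analysed from the peak lists. Per the submitters' processing notes, BWA, SAMtools, Partek and MACS2 were used with build mm10 (GRCm38). The authors called broad peaks with MACS 2.1.1.20160309 at a p-value cutoff of 0.005, separately for each library and without pooling, and kept uniquely mapped reads. The pileup deposited for each peak is a signal, namely its mean depth of overlapping tags once the larger library had been scaled to the smaller. Fold enrichment was deposited as a ratio of that pileup to the control background, both with a pseudocount, which lowers it most in the shallower replicate. The deposited −log10 p-values were used to describe and filter peaks. MACS computed no q-values for broad regions, per the file headers. These values give 1 number per peak and no tag counts for unlisted regions, so an absent peak is not a measured zero.

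Replicate numbers were taken from the labels, with the unnumbered libraries as replicate 1, and 0 columns belonged to no sample. Tags left after duplicate removal numbered 30369351 and 49947919 for H3K27me3, 23688420 and 51681224 for input and 24440452 for IgG. Overlaps (at least 1 base) with GENCODE M21 genes, distances and covered shares were computed with Python 3.11.15, numpy 2.4.6 and pandas 2.3.3, and plotted with matplotlib 3.10.9. The number that density gives is the peaks per sequenced base of the chromosome times a length. That length is the window length plus the mean peak length, less 1 base. Unique positions are those whose 49-mer or 74-mer occurs once in GRCm38.p6 on either strand, counted with numba 0.67.0. The overlap and uniqueness code was tested on simulated data. Limits beside a share of 0 take 3 counts of the total and cover counting error only. The lists of other genes were named for the matrix, mineral and regulator roles, and of each the genes with a peak in both replicates or among the 5 highest in mean covered share could be named, with the neighbours of each gene. The 9 genes and all lists were chosen with earlier results of these data known. Stricter fold and p thresholds, other windows, other controls and leaving out libraries were tried as alternatives.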

Additional observations from a re-analysis of the deposited data

How the results depend on the processing

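No paired analysis was possible because the results are counts over peak lists of 1 H3K27me3 group and come from no test. The number of the 9 genes with a promoter peak in both replicates, or in the replicate kept, was 0 in every alternative tried. The number of shared replicate 1 peaks was also 0 in each alternative tried for it. Stricter thresholds and a reduced replicate 2 can only remove peaks, so a 0 there was fixed in advance. With promoters of 5 kb on each side, the Mepe peak of replicate 1, 1.1 kb from the 5′ end, and the Ibsp peak of replicate 2, at 4.86 kb, fell within a promoter. The covered share, 0.120% in the report with an SD above its mean, was 0.00650% with a fold enrichment of 3 or higher, 0.0142% with a p of 0.001 or lower, 0.0744% with replicate 2 reduced to as many peaks as replicate 1, and 0.0230% to 0.217% when 1 replicate was left out. With a fold enrichment of 3 or higher, the 9 genes had 0 members with a peak in both replicates in place of 1, their mean number of peaks was 0.5 in place of 4.5, the density from Dspp to Spp1 was 0 in place of 7.13 per Mb, and 0 of the 40 other genes had a peak in both replicates in place of 9. With a p of 0.001 or lower, that density and that number of other genes were also 0, and the mean number of peaks was 1. With replicate 2 reduced to as many peaks as replicate 1, the density was 5.35 per Mb. With a flank of 20 kb, 2 of the 9 genes and 14 of the other genes had a peak in both replicates, the gained gene being Ibsp, whose wider window takes in the Mepe peak of replicate 1. Leaving out 1 replicate, so that a gene needed a peak in the other alone, gave 2 to 3 of the 9 genes, 2 to 7 peaks in them and 11 to 20 of the other genes. Without Phex, an alternative chosen after seeing the data as was that of every transcript start, 0 genes had a peak in both replicates. The low depth of the faintest peaks limits what a single peak shows.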
